A study of Mus musculus with 6 samples.

Results

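The genes of the activator protein 1 (AP-1) transcription factor were compared between wild-type (WT) and Srrm2+/- mouse embryonic stem cells, to ask how the FOS and JUN families stood in cells with a lower dose of the splicing factor gene Srrm2. The members were the rows of the deposited total RNA table for Fos, Fosb, Fosl1, Fosl2, Jun, Junb, Jund and Atf3, that is 8 of the 42450 genes listed. The table held 3 libraries of E14tg2a.4 cells (WT) and 3 of the gene-trap line derived from them, in which a cassette truncates 1 allele of Srrm2. Both lines were grown on gelatine and moved to a serum-free medium with leukaemia inhibitory factor before collection. The Srrm2+/- line came from 1 gene-trap event. Replicates were separately frozen batches of each line, at higher passage numbers for WT, so genotype, line and passage cannot be told apart.

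AP-1 is a dimer of basic leucine zipper proteins. JUN proteins pair with each other or with FOS proteins, whereas FOS proteins need a JUN partner to bind DNA, and ATF3 pairs with JUN proteins or with itself. The dimers bind the TPA response element (TRE) or the longer cyclic AMP response element (CRE). Fos, Fosb, Junb, Jun and Atf3 are immediate early genes, whose transcripts appear within minutes of a growth factor or stress signal and decay quickly, while Jund is transcribed at a steadier level in most cells. In embryonic stem cells AP-1 activity is known to be low.

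The sequence before the start of Fos, Jun, Junb and Atf3 is shown because these members are known to answer signals through short elements close to their start. Windows from 250 bases before to 50 after each start were taken from RefSeq (GRCm38.p6), and 7 of the 8 members had one. Capitals mark the matches to 5 motifs searched on both strands, namely the TRE as TGANTCA, the CRE and its relatives as TGACNTCA, the core bound by ATF and CREB proteins as TGACGT (which can lie inside the CRE), the box that positions transcription of many regulated genes as TATAAA, and the CArG box of the Fos serum response element. Each is printed 5′ to 3′ along the gene up to its RefSeq start, or for Junb up to its GENCODE start. The Fos stretch is chr12:85473640-85473889 on the plus strand, and those of Jun, Junb and Atf3 are chr4:95052223-95052472, chr8:84978719-84978998 and chr1:191183334-191183583 on the minus strand.
Fos: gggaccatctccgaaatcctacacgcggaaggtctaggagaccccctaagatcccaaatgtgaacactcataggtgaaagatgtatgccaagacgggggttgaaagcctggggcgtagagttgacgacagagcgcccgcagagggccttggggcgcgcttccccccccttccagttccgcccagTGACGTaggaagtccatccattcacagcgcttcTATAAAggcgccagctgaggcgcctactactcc
Jun: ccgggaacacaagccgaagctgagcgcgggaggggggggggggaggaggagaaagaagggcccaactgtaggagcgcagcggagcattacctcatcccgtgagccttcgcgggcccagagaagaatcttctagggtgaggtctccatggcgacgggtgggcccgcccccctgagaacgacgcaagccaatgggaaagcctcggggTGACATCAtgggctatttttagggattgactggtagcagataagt
Junb: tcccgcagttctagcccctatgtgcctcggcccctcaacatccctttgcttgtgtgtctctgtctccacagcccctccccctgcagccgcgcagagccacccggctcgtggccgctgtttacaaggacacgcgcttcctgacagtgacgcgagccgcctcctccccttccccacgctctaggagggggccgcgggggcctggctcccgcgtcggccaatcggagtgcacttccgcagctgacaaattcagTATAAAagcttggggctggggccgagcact
Atf3: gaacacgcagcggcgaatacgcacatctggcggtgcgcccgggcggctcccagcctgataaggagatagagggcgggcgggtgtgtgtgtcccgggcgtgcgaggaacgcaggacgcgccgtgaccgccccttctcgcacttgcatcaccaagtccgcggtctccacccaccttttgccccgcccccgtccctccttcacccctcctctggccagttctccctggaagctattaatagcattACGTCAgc

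In Fos the core TGACGT began at position -66 and TATAAA at position -33 from the start. Jun held the CRE-like TGACATCA at position -45, and Atf3 held the core on the opposite strand at position -8 from its RefSeq start, which lies inside the annotated gene. Junb held TATAAA at position -30 from its GENCODE start. Of all 32851 windows in the table, 7.81% held TGANTCA, 8.83% TGACNTCA, 7.51% TGACGT, 13.6% TATAAA and 0.0639% the CArG box. Fosb, Fosl2 and Jund held no match to any of the 5 motifs in their windows. The CArG box was found in no member's window, which for Fos ends short of the known serum response element. For Jund the GENCODE start lay 1210 bases downstream of the RefSeq start, and for Fosl2 at -671 bases from it, so their windows were not printed.

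Library totals lay between 54151532 and 69933465 estimated counts, and those of Srrm2+/- were the higher. Srrm2 itself was at 95.7 ± 3.94 CPM (counts scaled to a common library size) in the WT libraries, and Srrm2+/- libraries held 59.3 ± 3.02 CPM (SD, n = 3 each). The log2 difference of -0.69 (SE 0.05, adjusted p = 2.38e-05 by edgeR) had the direction of the labels. The 10 embryonic stem cell markers summed to 5556 to 5739 CPM in WT libraries and 5054 to 5155 CPM in Srrm2+/- libraries, with 5 lower, among them Nanog at a log2 fold change of -0.72, and 2 higher. Fibroblast markers summed to 3.51 to 3.72 CPM in WT and 7.33 to 11.1 CPM in Srrm2+/-. Of the 7 tested, 5 were higher, namely Col1a2 (14.8-fold), Twist2 (10.5-fold), Postn (7.14-fold), Col3a1 (4.85-fold) and Col1a1 (2.19-fold). In WT, Col1a2 had 6, 15 and 12 counts, Twist2 0, 2 and 2, and Postn 8, 3 and 6. These 3 passed the filter on low counts only through Srrm2+/-, so their calls and folds add no support. Thy1, the largest part of the WT sum, went from 1.93 to 1.19 CPM (edgeR adjusted p = 0.0938). Thy1 and Pdgfrb, the latter at a log2 fold change of 0.23 (edgeR adjusted p = 0.685), did not pass the test. Of the untested ones, Dcn was at 0 counts in each WT library and at 4, 2 and 3 counts in Srrm2+/-, and Lum had at most 3 counts in any library. Mesoderm markers summed to 1.79 to 2.82 and 4.64 to 5.34 CPM (1 of 4 tested higher, the primitive streak gene T). Primitive endoderm markers summed to 2.39 to 2.70 and 2.56 to 3.64 CPM (1 of 5 higher). Trophoblast markers summed to 54.3 to 55.3 and 38.4 to 41.7 CPM (2 of 4 higher, 1 lower). Over all genes tested, 13.6% were called higher and 11.7% lower. A single call in a list this short is near those shares. The trophoblast sum was mostly Tfap2c, which fell from 50.6 to 30.8 CPM, while Krt7 and Eomes rose and Cdx2 had 0 counts in WT and 5, 8 and 17 in Srrm2+/-. The part of such cells in the AP-1 result was not tested, and in bulk RNA more expressing cells and more RNA per cell cannot be told apart.

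Every FOS and JUN family gene that could be tested, and Atf3, was higher in Srrm2+/- cells. Among these 6 genes Fosl2 and Jun rose most, by 8.31-fold and 5.42-fold, Fos, Junb and Atf3 rose 2.16-fold to 3.01-fold, and Jund rose by a factor of 1.23. The test was edgeR's quasi-likelihood test over 18905 genes with Benjamini-Hochberg adjustment, in which 25.3% of genes were called at an adjusted p under 0.05 and 13.6% were called higher. Of the 8 members, 6 passed the filter on low counts and all 6 were called higher. Each of these 6 had at least 18 counts in every library, so none entered through Srrm2+/- alone. Their median log2 fold change was 1.41, beside -0.00254 over all genes tested. In all 6 the lowest Srrm2+/- library lay above the highest WT library, which held for 21.4% of all genes tested (41.4% lay apart in either direction). Fosb and Fosl1 did not pass the filter and are given by their counts.

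**Figure D1:**
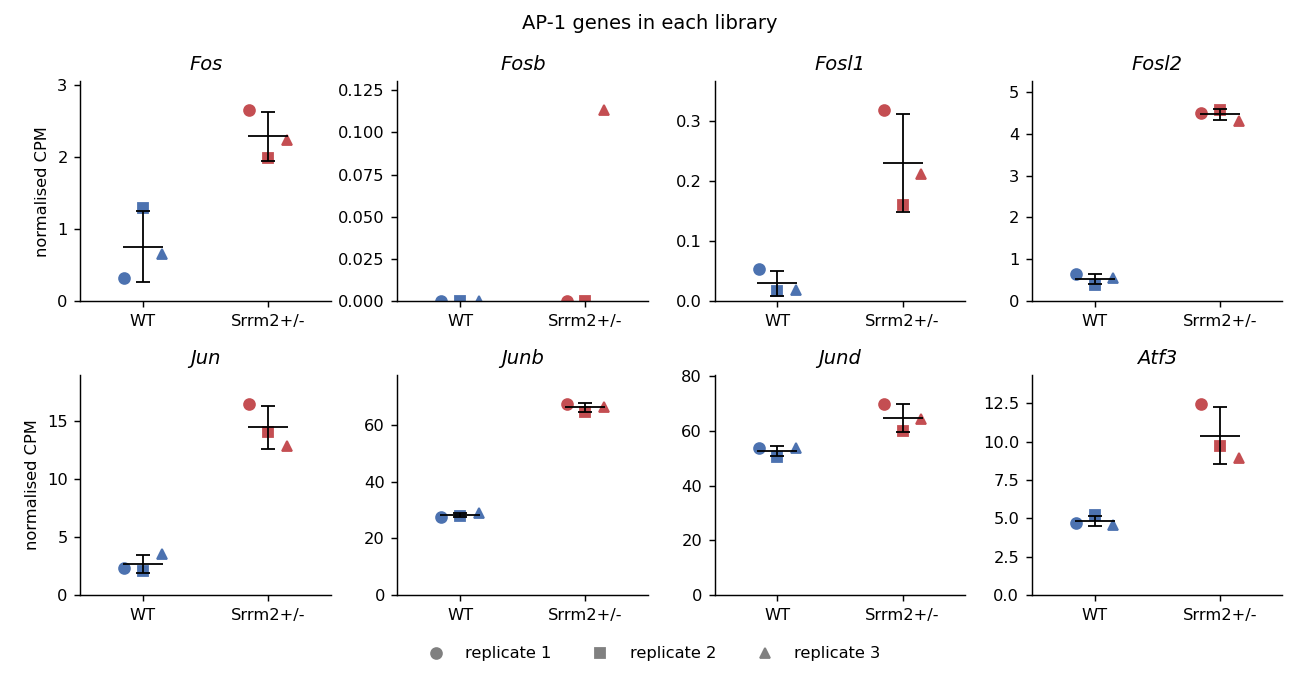
Normalised CPM (y axis, linear from 0, a separate scale for each gene) of the 8 AP-1 genes in the 3 WT and 3 Srrm2+/- libraries. Symbols give the replicate number, horizontal lines the mean and bars the SD (not drawn for Fosb, seen in 1 library); the groups stand apart in every panel but that of Fosb.

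The JUN family carried most of the AP-1 transcript. Jun (ENSMUSG00000052684, chr4:95049034-95052222, minus strand, a single-exon gene) encodes the founding JUN protein and the most potent activator of the family. It was at 2.32, 2.11 and 3.58 CPM in WT replicates 1 to 3 and at 16.5, 14.04 and 12.9 CPM in Srrm2+/-. The lowest Srrm2+/- library was thus well above the highest WT library, WT replicate 3. EdgeR gave a log2 fold change of 2.44, with SE 0.19 and adjusted p = 3.41e-05.

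Junb (ENSMUSG00000052837, chr8:84974484-84978718, minus strand) encodes a weaker activator that can restrain JUN. Its libraries held 27.7, 27.9 and 29.1 CPM in WT and 67.6, 64.6 and 66.4 CPM in Srrm2+/-. Replicates differed little, with a coefficient of variation of 2.73% in WT and 2.27% in Srrm2+/-, close to the counting error of 2.52% and 1.51%. EdgeR gave a log2 fold change of 1.23, with SE 0.04 and adjusted p = 4.52e-07, the lowest adjusted p among the members.

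Jund (ENSMUSG00000071076, chr8:70698949-70700616, plus strand) encodes the JUN protein that most tissues hold at rest. It was at 53.7, 50.4 and 53.7 CPM in WT and at 69.97, 59.9 and 64.3 CPM in Srrm2+/-. The groups lay apart, although Srrm2+/- replicate 2 came close to WT. The log2 fold change from edgeR, 0.30 with SE 0.06 and adjusted p = 0.00638, was the smallest among the tested members and below the median of 0.59 over all genes called higher.

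Reads of Jund and Jun may be divided with genes on the other strand, since the library kit keeps the strand but the setting used in counting is not given in the sources used here. Of the 31-base words of Jund, 50.1% also occur in other genes. The main one is Gm11175, an antisense gene at 0 counts in each WT library and at 31, 47 and 36 in the others. Jun shares 6.39% of its words, mainly with its antisense gene Junos, which had at most 39 counts in a library. With each pair summed, the log2 fold change was 0.31 for Jund (edgeR adjusted p = 0.00473) and 2.35 for Jun (edgeR adjusted p = 2.27e-05). Junb shares 6.51% of its words, mainly with the overlapping gene Prdx2.

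**Figure D2:**
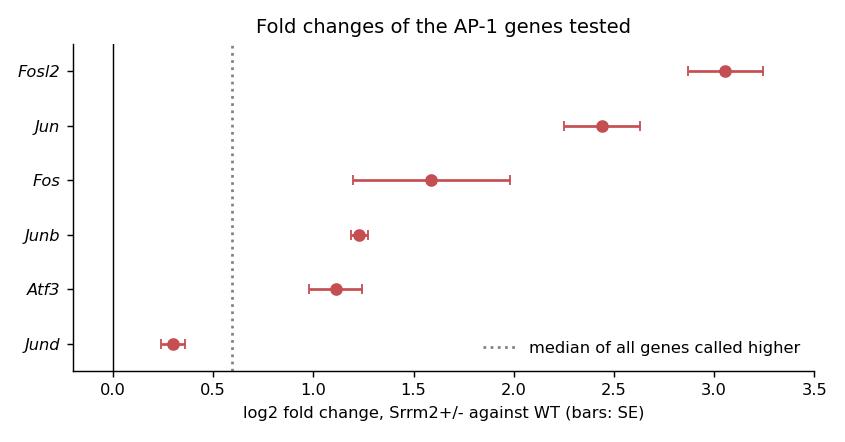
Log2 fold change of the 6 tested AP-1 genes in Srrm2+/- against WT (x axis; points are edgeR estimates and bars their SE), ordered by size. Jund, at 0.30, is left of the dotted line, the median of 0.59 over all genes called higher, and the other 5 are right of it, up to 3.06 for Fosl2.

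The FOS family was scarce in both genotypes. Fos (ENSMUSG00000021250, chr12:85473890-85477273, plus strand) is the classical immediate early gene, induced through the serum response factor (SRF) and its ELK partners. It was at 0.324, 1.30 and 0.653 CPM in WT, which are 18, 75 and 35 counts, and at 2.66, 1.99 and 2.24 CPM in Srrm2+/-. The groups did not overlap, but WT was uneven. WT replicate 2 stood at 4 times replicate 1, and the coefficient of variation in WT was 65.3% where counting error alone gives 15.3%. In Srrm2+/- it was 14.8%. EdgeR gave a log2 fold change of 1.59, with SE 0.39 and adjusted p = 0.0168.

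The call of Fos rests on few libraries. Without WT replicate 3 the log2 fold change was 1.49 with an edgeR adjusted p of 0.0531, and without Srrm2+/- replicate 1 it was 1.47 with 0.0577. Without WT replicate 2, the library where Fos was highest, it was 2.23 (edgeR adjusted p = 0.00211). In WT, Dusp1, an immediate early phosphatase gene, had 410, 633 and 558 counts and was also highest in WT replicate 2, while Egr1, with 38, 39 and 60 counts, was highest in replicate 3.

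Fosl2 (ENSMUSG00000029135, chr5:32135801-32157842, plus strand) encodes FRA2, a FOS protein without the strong activation domain of FOS that builds up later after a stimulus. It was at 0.649, 0.398 and 0.560 CPM in WT and at 4.49, 4.57 and 4.31 CPM in Srrm2+/-. The 3 Srrm2+/- libraries were nearly equal and every WT library was far below them. The log2 fold change from edgeR, 3.06 with SE 0.19 and adjusted p = 8.46e-06, was exceeded by 0.487% of all genes tested, the lowest such share among the members, followed by 0.92% for Jun.

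Fosl1 (ENSMUSG00000024912, chr19:5447547-5455946, plus strand) encodes FRA1, the other late FOS protein and itself an AP-1 target in many cells. The WT libraries held 3, 1 and 1 rounded counts, and those of Srrm2+/- held 22, 11 and 13, so the gene did not pass the filter. Summed over libraries, the ratio of its CPM in Srrm2+/- to that in WT was 7.68, with an exact (Clopper-Pearson) 95% interval of 3.06 to 24.8 that covers counting error only. When genes with at least 1 count were all tested, edgeR gave a log2 fold change of 2.86, with SE 0.69 and adjusted p = 0.0115. Of its 31-base words, 54.5% also occur in other genes, chiefly Ccdc85b on the opposite strand, which rose by 0.39 on the log2 scale (SE 0.06, edgeR adjusted p = 0.0011). The division of reads between them was not tested.

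Fosb (ENSMUSG00000003545, chr7:19302696-19310051, minus strand), an immediate early gene well known from neurons, was near the limit of detection. It had 0 counts in all 3 WT libraries, which allows up to 0.018 CPM over the group at 3 counts, and 0, 0 and 7 counts in Srrm2+/-. A difference was not detectable at this depth.

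Atf3 (ENSMUSG00000026628, chr1:191170296-191218039, minus strand) encodes a stress-induced partner of JUN proteins that represses many promoters as a homodimer. It was at 4.69, 5.19 and 4.56 CPM in WT and at 12.5, 9.73 and 8.95 CPM in Srrm2+/-. The groups lay apart, and the spread was wider in Srrm2+/- (coefficient of variation 17.9%) than in WT (6.96%). EdgeR gave a log2 fold change of 1.11, with SE 0.13 and adjusted p = 0.000416. Srrm2+/- replicate 1 was the highest library for Fos, Fosl1, Jun, Junb, Jund and Atf3, but not for Fosl2 or Fosb.

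Levels of different genes were compared per kilobase of annotated exon. In WT the order was Jund (31.5 ± 1.14 CPM per kilobase, SD, n = 3), Junb (12.3 ± 0.335), Atf3 (2.23 ± 0.156), Jun (0.838 ± 0.250), Fos (0.322 ± 0.210), Fosl2 (0.0553 ± 0.0131), Fosl1 (0.0148 ± 0.0103) and Fosb, which had no counts. No neighbours in this order overlapped in their 3 WT libraries. In Srrm2+/- the same order held, from Jund (38.8 ± 3.01) and Junb (28.8 ± 0.654) through Atf3 (4.82 ± 0.863), Jun (4.54 ± 0.586), Fos (0.975 ± 0.144) and Fosl2 (0.46 ± 0.0136) to Fosl1 (0.113 ± 0.0398) and Fosb. There Atf3 and Jun overlapped, between 4.15 and 5.18 CPM per kilobase, and the other neighbours did not. The order was the same when the longest annotated transcript was used as length.

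Summed over its genes, the FOS family was at 0.393 ± 0.189 CPM per kilobase in WT libraries and at 1.55 ± 0.181 in those of Srrm2+/- (SD, n = 3 each), a ratio of means of 3.96. The JUN family was at 44.7 ± 1.52 and 72.1 ± 4.08 CPM per kilobase, a ratio of 1.615. FOS transcripts thus stayed far below JUN transcripts in every library. On the log2 scale the FOS to JUN ratio was -7.60, -6.16 and -7.06 in the WT libraries and -5.45, -5.62 and -5.56 in the Srrm2+/- libraries. The groups did not overlap and the mean differed by 1.40, with a two-sided exact permutation p = 0.1, the smallest that 3 against 3 libraries can give (0.2 adjusted over 8 comparisons of composition).

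Within the JUN family the share of Jund was smaller in every Srrm2+/- library than in any WT library, and those of Junb and Jun were larger, although 3 against 3 libraries cannot pass a threshold of 0.05. Jund held 70.6 ± 0.83% of the family's level in WT and 53.8 ± 1.16% in Srrm2+/-. Junb held 27.5 ± 0.692% and 39.95 ± 1.38%, and Jun 1.87 ± 0.5% and 6.28 ± 0.58% (SD, n = 3 each). Each of these 3 differences had an exact permutation p = 0.1 (0.2 adjusted). The 3 shares sum to the whole and are not independent.

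Within the FOS family the shares overlapped between the groups. Fos held 77.3 ± 16.3% in WT and 62.6 ± 2.0% in Srrm2+/- (exact permutation p = 0.4), and Fosl2 held 17.5 ± 11.1% and 29.9 ± 3.69% (exact permutation p = 0.2). The spread of Fos was widest in WT, where it held 59.6, 91.7 and 80.6% in the 3 libraries. Fosl1 held 5.19 ± 5.49% and 7.13 ± 1.67% (exact permutation p = 0.6), and Fosb at most 1.2% in any library (exact permutation p = 1). Adjusted over the 8 comparisons, these exact permutation p-values were 0.533 for Fos, 0.32 for Fosl2, 0.686 for Fosl1 and 1 for Fosb. The differences between the group means rest on single WT libraries. Without WT replicate 1 they were -23.6 percentage points for Fos, 18.1 for Fosl2 and 5.09 for Fosl1, and without WT replicate 2 they were -7.48, 7.03 and 0.053. For Fosl1 the difference was also 0.677 without WT replicate 3 and 1.04 without Srrm2+/- replicate 1.

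**Figure D3:**
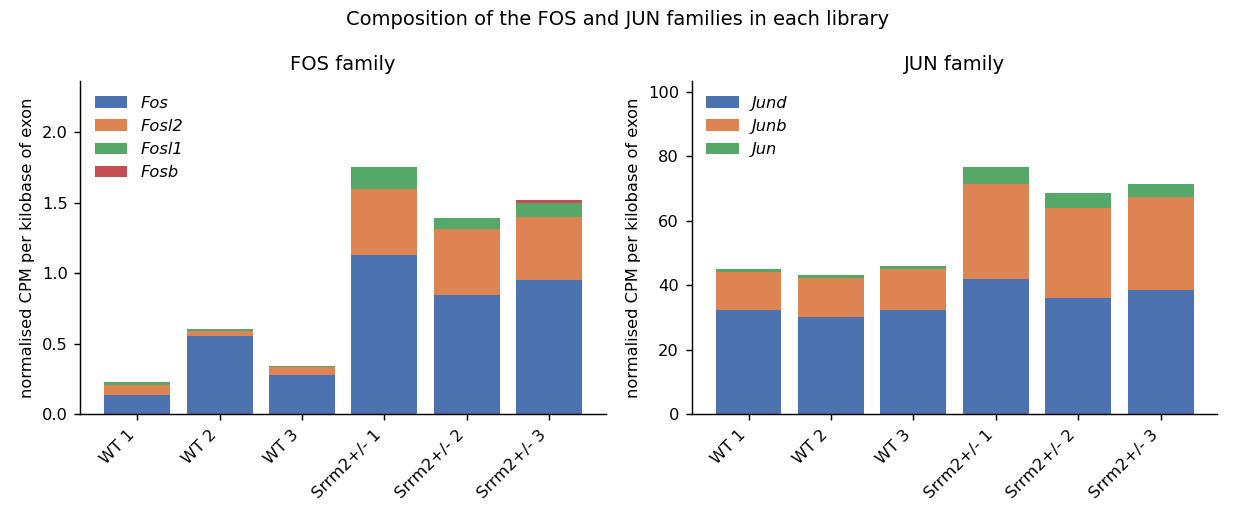
Stacked bars of normalised CPM per kilobase of exon in each library, for the FOS family (left) and the JUN family (right, on its own scale). Jund is the largest part of each JUN bar, and the Junb part is on average 27.5% of the WT bars and 39.95% of the Srrm2+/- bars.

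The likeness of other genes to Fos and Jun was read from log2 CPM over the 6 libraries, which fall into 2 genotype groups. Among 12063 genes at a mean log2 CPM of at least 1, Mrpl44, Zer1, Nudt9, Nprl3 and Trp53cor1 followed Fos most closely (Pearson r 0.9885 to 0.9937), with log2 fold changes of 0.14 to 0.31. Fhl3, Slc39a14, Dffb, Slc43a2 and Sgce followed Jun most closely (Pearson r 0.997 to 0.9996), with log2 fold changes of 0.33 to 2.02. The points share libraries and the genotype step.

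Of the 14 other basic leucine zipper genes of the AP-1 network on the list, 10 were tested, 2 were higher, 1 was lower and 7 did not pass the test, with a median log2 fold change of -0.01. With so few genes this is near the 25.3% called over all genes tested (13.6% higher and 11.7% lower). Maff and Mafk, which encode small MAF proteins without an activation domain, rose by 0.62 (SE 0.07) and 0.58 (SE 0.11) on the log2 scale (edgeR adjusted p = 0.000405 and 0.00452). Jdp2, whose product dimerises with JUN proteins and represses AP-1 sites, fell by 0.42 on the log2 scale, from 17.1 ± 1.31 to 12.8 ± 1.17 CPM (SD, n = 3 each, edgeR adjusted p = 0.00693). Atf2, the classical ATF partner of JUN, was at 87.3 ± 1.36 and 84.4 ± 1.9 CPM (edgeR adjusted p = 0.394). Batf, Batf2 and Creb5 had at most 11 counts in a library, and Nrl had none.

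Upstream of AP-1, mitogen-activated protein kinases (MAPK) phosphorylate JUN, FOS and the ELK factors. All 22 kinase genes on the list were tested, and 6 were higher, 1 lower and 15 did not pass the test (median log2 fold change 0.06). In either direction this is near the 25.3% called over all genes. By direction, the 6 higher stand beside 13.6% and the 1 lower beside 11.7% over all genes. Mapk10, the JUN kinase gene JNK3, had the highest log2 fold change, 1.20, at 3, 5 and 10 counts in WT, and did not pass the test (edgeR adjusted p = 0.120). Among the genes called, the largest rises were those of Mapkapk2, a kinase downstream of p38, by 0.93 (SE 0.08, edgeR adjusted p = 6.84e-05), and Mapk13, a p38 gene, by 0.665 (SE 0.12, edgeR adjusted p = 0.00348). Map2k4, which activates the JUN kinases, rose by 0.27 (SE 0.04), while Mapk8, the JUN kinase JNK1, was lower at -0.18 (SE 0.04, edgeR adjusted p = 0.0141). Mapk3 had a log2 fold change of 0.07 and did not pass the test. These are transcript levels and not kinase activities.

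The MAPK phosphatase genes, many of them induced by the kinases that their products switch off, were mostly higher. All 10 were tested and 9 were called higher, beside 13.6% of all genes, with a median log2 fold change of 1.30. Among them, Dusp2 had 4, 11 and 7 counts in WT. It passed the filter on low counts only through Srrm2+/-, so its call and fold add no support. Both are counted in the 9 and in the median. Dusp5, a MAPK phosphatase of the nucleus, rose from 2.07 ± 0.381 to 12.7 ± 0.791 CPM (log2 fold change 2.62, SE 0.135, adjusted p by edgeR = 3.49e-06). Dusp8, a phosphatase of JNK and p38, rose from 0.322 ± 0.1 to 1.62 ± 0.258 CPM (log2 fold change 2.32, SE 0.27, adjusted p by edgeR = 0.000333). Dusp6, a cytoplasmic MAPK phosphatase, went from 52.5 ± 1.5 to 117 ± 3.29 CPM (SD, n = 3 each), and Dusp1 from 9.59 ± 1.92 to 21.3 ± 0.547 CPM. Dusp9 was the gene not called, at 41.5 ± 5.28 and 44.6 ± 2.21 CPM.

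At the Fos promoter SRF binds together with ELK proteins. Of the 6 genes of SRF, the ELK factors and the SRF coactivators MRTFA and MRTFB, 2 were higher and 4 did not pass the test (median log2 fold change 0.02). Over all genes 25.3% were called and 13.6% were called higher, and the list is too short to set against those shares. Srf rose by 0.99 (SE 0.06, edgeR adjusted p = 7.09e-06) and Elk3 by 0.89 (SE 0.13, edgeR adjusted p = 0.00153) on the log2 scale. Of the 10 genes whose products shorten or stabilise AP-1 messengers and proteins, only Zfp36 was called. It encodes tristetraprolin, which destabilises AU-rich messengers such as that of Fos, and rose by 0.75 (SE 0.17, edgeR adjusted p = 0.0123), a call lost without Srrm2+/- replicate 3. The ubiquitin ligase genes Cop1, Fbxw7 and Itch, whose products degrade JUN, had log2 fold changes of -0.15, -0.05 and -0.02 and did not pass the test.

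Among 32 genes long described as AP-1 targets, 25 were tested, 15 were higher, 3 lower and 7 did not pass the test (median log2 fold change 0.36), beside 13.6% called higher and 11.7% called lower over all genes. The largest rises were Thbs1, a matrix glycoprotein, from 2.83 ± 0.547 to 39.9 ± 2.64 CPM (log2 fold change 3.82, SE 0.12), and Krt18, a keratin of simple epithelia, from 9.21 ± 0.991 to 127 ± 7.25 CPM (log2 fold change 3.79, SE 0.08; SD, n = 3 each). Ptgs2, the inducible cyclooxygenase, rose by 3.07 (SE 0.16), and Plaur and Plau, the urokinase receptor and urokinase, by 2.05 (SE 0.08) and 1.76 (SE 0.30). The lower genes were Spp1 at -0.63 (SE 0.04), Timp1 at -0.46 (SE 0.12) and Fn1 at -0.42 (SE 0.07), which encode osteopontin, an inhibitor of matrix proteases and fibronectin. The protease genes Mmp3 and Mmp10 and the cytokine gene Il6 had no counts in any library, and Mmp13 had at most 1. Cd44, the hyaluronan receptor, rose by 2.00 (SE 0.36) from 0.279 ± 0.145 CPM. With 21, 20 and 6 counts in WT, Cd44 passed the filter on low counts only through Srrm2+/-, so its call and fold add no support. Both are counted in the 15 and in the median. These genes also answer to other factors.

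Heat shock and handling genes, which can rise with AP-1 genes when cells are harvested, moved in part with genotype. Of 12 tested, 8 were higher, 1 lower and 3 did not pass the test (median log2 fold change 0.59), beside the same shares over all genes. Ier2, Ier3, Btg2, Egr1 and Gadd45b, the genes of the list that are not heat shock genes, were all called higher. Of the heat shock genes, only Hspa1a, Hspa1b and Hspa8 were called higher. Egr1 rose by 2.34 (SE 0.20) and Ier3 by 1.32 (SE 0.16), while Hsp90aa1 was lower at -0.26 (SE 0.03). Hspa1a and Hspa1b, the inducible HSP70 genes, rose by 1.30 (SE 0.26) and 1.09 (SE 0.12), and Dnajb1, Hsph1 and Hspb1 had log2 fold changes of 0.03, 0.09 and 0.06 and did not pass the test. Their part in the AP-1 result was not tested.

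**Figure D4:**
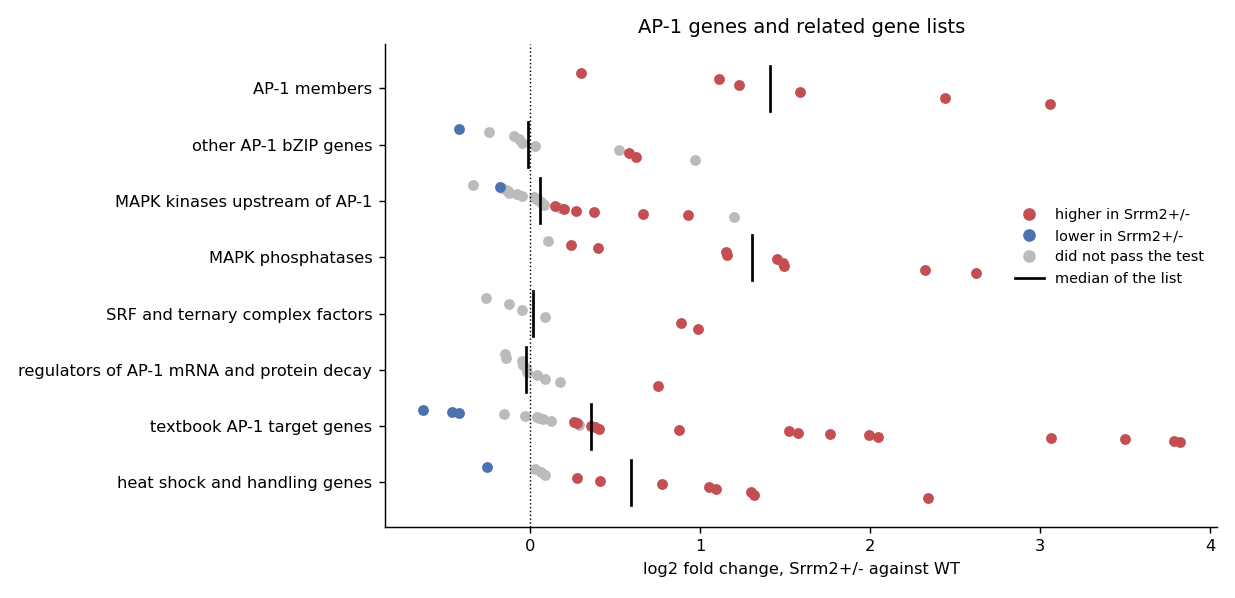
Log2 fold change of each tested gene (x axis) of the AP-1 members and 7 related lists (rows), coloured by the edgeR call, with the median of each list as a vertical bar. The AP-1 members and the MAPK phosphatases have medians of 1.41 and 1.30, the latter with Dusp2 counted. The lists of other basic leucine zipper genes, kinases, SRF factors and decay regulators have medians within 0.06 of 0.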

How the data were processed

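Total RNA libraries of WT and Srrm2+/- cells (3 each) were compared. The authors pseudo-aligned paired reads with kallisto 0.46.1 to the mouse GENCODE transcriptome (release M24) and deposited estimated counts per gene, not normalised. The labels give the build as mm10. No source used here gave the strand setting. Reads that fit several transcripts are split among them by estimation, so counts of overlapping genes can trade places. Groups came from the sample titles. The replicates are thawed frozen batches of 1 line per genotype.

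Estimated counts were rounded. Symbols, coordinates and exon lengths (union of exons) came from GENCODE release M21 on GRCm38, which matched 42156 of 42450 identifiers. Genes past filterByExpr (minimum count 10, minimum total 15) were fitted with edgeR 4.0.16 (TMM, glmQLFit, glmQLFTest, two-sided), with genotype as the only term and all 6 libraries, and called at a Benjamini-Hochberg adjusted p under 0.05. CPM used library sizes after TMM scaling. Each SE was taken as the absolute log2 fold change over the root of the F statistic. Levels within the families were compared with exact permutation tests (scipy 1.17.1).

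Alternatives were RLE and upper quartile scaling, DESeq2 1.42.0, limma 3.58.1 voom, 2 other filters, the replicate block, each library left out, stricter call rules, removal of short RNA and mitochondrial genes, and other lengths. Sums with antisense genes and the count ratio of Fosl1 were added after seeing the data. Scripts were tested on simulated counts. Libraries of a group always differed by more than counting noise (lowest chi-square over its degrees of freedom 14.7).

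The members and the lists were chosen with earlier results of these data known. Srrm2, the 8 members and any gene of the lists could be named, first those with the 2 largest rises and falls called in a list, and the 5 genes most correlated with Fos and with Jun at a mean log2 CPM of at least 1. Genes sharing sequence with a member were named after their values were seen. No set test was run on the lists. The values of 1 kinase gene on the lists are not reported here.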

Additional observations from a re-analysis of the deposited data

How the results depend on the processing

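Over the other scalings, tools, filters, the block and the libraries left out, the log2 fold change stayed between 2.88 and 3.219 for Fosl2, 2.296 and 2.708 for Jun, 1.215 and 1.253 for Junb, 0.2411 and 0.3539 for Jund and 0.9581 and 1.208 for Atf3, with each call kept (highest adjusted p 0.0252, for Jund, over edgeR, DESeq2 and limma). Fos kept its direction, from 1.227 to 2.232 with libraries left out, but lost its call without WT replicate 3, without Srrm2+/- replicate 1 and at an adjusted p under 0.01. Jund lost its call where a log2 fold change of 1 was required. Fosl1 was fitted under 5 alternatives, at 2.586 to 3.537. With a library left out it passed the filter only through Srrm2+/-, having 3, 1 and 1 counts in WT. Those fits therefore add no support. The number of members called was 5 to 7, and the counts of 7 and that of 6 without WT replicate 3 include Fosl1. The genes called numbered 4781, falling to 1153 (813 higher, 340 lower) when the log2 fold change also had to reach 1 in size, to 2779 (1574 higher, 1205 lower) at an adjusted p under 0.01, and to 3516 to 4122 with a library left out. The fold rule left 0 other basic leucine zipper genes, 0 kinases, 0 SRF factors, 0 decay regulators, 9 targets and 5 handling genes called. It left 7 phosphatases and 5 members called. The 7 phosphatases include Dusp2 and the 9 targets include Cd44. Both passed the filter on low counts only through Srrm2+/- and add no support. The stricter p left 4 kinases and 0 decay regulators, with 3 other basic leucine zipper genes, 2 SRF factors, 7 phosphatases, 16 targets and 8 handling genes. Cd44 is again among the 16 targets. By construction both rules can only lower a count. Decay regulators called were 2 under DESeq2, the filter of 1 CPM, the replicate block and the removal of short RNA genes, and 0 to 2 with a library left out (2 without Srrm2+/- replicate 1, 0 without Srrm2+/- replicate 3). For these shifts the cause was not tested. Fosb's mean share of the FOS family was 0 without Srrm2+/- replicate 3, and 0 to 0.5985 percentage points higher over the libraries left out. Those of Fos (-23.57 to -7.482), Fosl2 (7.03 to 18.08) and Fosl1 (0.05277 to 5.088) kept their sign.

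Same-numbered libraries did not deviate together (correlations -0.0285, -0.0338 and -0.03), and the replicate numbers were not taken as pairs. Under the replicate block 4166 genes were called, the 6 tested members stayed called, and Fos was at 1.71 (edgeR adjusted p = 0.0343). Counts limit Fosb and Fosl1 most, and with 3 libraries a group no permutation p can fall below 0.1.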
